A study of Mus musculus with 6 samples.

Results

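Of the 3292 target peaks listed for the whole series, 664 (20.2%) lay by midpoint within the span of a nuclear protein-coding gene that held 5 or more of them, in 94 genes. A peak was assigned only where its midpoint fell in exactly 1 such gene of the RefSeq annotation of GRCm38, which left 3070 peaks in 1716 genes, and 5.48% of those genes reached the minimum. The genes were chosen by their number of peaks in this same list, so the peak counts and densities below are a description and carry no test. The series pulled AGO2 down from mouse embryonic stem cells whose genotype is given as Spy3-Ago2 (library names begin with E14), grown on gelatin in medium with serum and LIF. The 2 target libraries came from RNA bound to Spy3-AGO2 and captured on SpyCatcher3 resin, and the 2 input libraries from whole lysate. The other 2 libraries, of miRNAs, were not used. All libraries share the cell line and genotype, and separate cultures are not named for the replicates. A single list of positions and strands stood for the series. It gave no height, no value per replicate and no depth, so no peak has a replicate error, and differences between gene classes are described without a p-value. Of 25 listed pluripotency transcription factor genes, 15 held at least 1 peak, against 7.84% of all nuclear protein-coding genes. That list was written with earlier results known, and a peak is not a level of expression, so the cell type was not tested by it.

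AGO2 binds a miRNA, and the miRNA guides it to partly complementary sites in other RNAs, most often near the 3' end of messenger RNAs, where binding lowers translation and RNA stability. Mouse embryonic stem cells depend on this pathway to leave the stem cell state. An exon map was not used here, so a position is given along the whole gene span, introns included, from upstream to downstream as the strand of the peak runs. Whether a peak lies in a coding, untranslated or intronic stretch is therefore not stated.

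No genome sequence was used, so the letters of the peaks are not shown, and 0 of the 664 peaks overlapped the promoter windows (250 bases before to 50 after a start) or the miRNA hairpins in the RefSeq tables. The sequences below are shown for Rtl1, an imprinted gene derived from a retrotransposon, which carried its 5 peaks in a span that also holds miRNA hairpins. Hairpins in the spans of other member genes are not given here, so Rtl1 need not be the only such gene. All 5 lay on the plus strand of chr12:109564900-109604418 (GRCm38), as did 13 of the 15 hairpins in that span. As background, Rtl1 itself is transcribed from the opposite strand, and the RNAs of the plus strand there are the maternally expressed Meg3 and anti-Rtl1 transcripts. The table used here gave no strand for Rtl1. The peak at chr12:109566201-109566262 lay within the span of Meg3. The 3 peaks between 109578006 and 109578300 stood 1933 to 2187 nt from the Mir493 hairpin, and the peak at chr12:109588943-109589004 stood 263 nt from Mir3070b, the shortest distance of the 5. The mature miRNAs of these nearest hairpins are printed 5′ to 3′ from RefSeq (GRCm38.p6), with the seed, bases 2 to 8, in capitals.
mmu-miR-493-5p: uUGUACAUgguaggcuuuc
mmu-miR-493-3p: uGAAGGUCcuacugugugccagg
mmu-miR-3070-5p: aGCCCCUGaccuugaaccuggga
mmu-miR-3070-2-3p: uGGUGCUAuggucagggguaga
mmu-miR-673-5p: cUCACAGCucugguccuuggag
mmu-miR-673-3p: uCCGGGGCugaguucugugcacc
The 6 seeds all differ. The hairpin of miR-673 was the nearest to the peak in Meg3, at 5728 nt. The 5 peaks were assigned to Rtl1 by coordinates alone, and their positions along it are measured on the plus strand.

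The 94 genes covered signalling, chromatin, RNA silencing and protein turnover, and they held between 5 and 23 peaks each, with a median of 6. Fn1 (fibronectin) led with 23, followed by Sall1 with 16, Srrm2 with 15, Tet1 with 14, and Jarid2 and Huwe1 with 13 each. There were 14 genes with 10 or more peaks, which together held 179, and 39 genes stood exactly at the minimum of 5. Just below the minimum, 71 genes held 4 peaks. Those 71 had a median span of 44483 nt, and the 39 genes with 5 a median span of 38295 nt. Member genes lay on 20 chromosomes, 10 of them on chromosome 11 and 5 on X.

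By known function, grouped after the genes were seen, the largest sets were signalling with 14 genes and 105 peaks, transport, metabolism and proteostasis with 14 genes and 89 peaks, and RNA processing and silencing with 12 genes and 87 peaks. Chromatin and transcription cofactors made up 11 genes with 66 peaks, matrix, adhesion and cytoskeleton 9 genes with 78, DNA and histone modification 8 genes with 73, and DNA-binding transcription factors 8 genes with 53. The ubiquitin pathway had 5 genes with 43 peaks, translation 6 with 32, and cell cycle and apoptosis 4 with 22. The remaining 3 genes were Rtl1, Mtdh and 2610507B11Rik. Of 259 genes on 10 lists written from textbook function, 38 held 5 or more peaks, against 0.429% of all 21887 nuclear protein-coding genes and 5.48% of those with a peak. Nothing is read from that difference, because the lists were drawn up with earlier results of these data known. They included 7 of 36 splicing and RNA-binding genes, 6 of 37 DNA and histone modifying genes, 5 of 26 signalling ligands, receptors and inhibitors, 4 of 13 translation factors and 4 of 23 cytoskeleton and scaffold genes. They also included 3 of 25 pluripotency factors (Klf2, Sall1 and Rif1), 3 of 23 ubiquitin ligases, 3 of 24 cell cycle and apoptosis genes, 2 of 30 remodelling and corepressor genes and 1 of 22 matrix and integrin genes. The other 56 of the 94 genes were on no list.

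Member genes ranged in span from 2545 nt for Tubb4b, a beta-tubulin gene, to 566094 nt for Smyd3, a lysine methyltransferase gene. Their median span was 48747.5 nt (quartiles 21372 and 85990.5). Genes with 2 to 4 peaks had a median of 38047 nt, genes with 1 peak 33390 nt, and all 21887 nuclear protein-coding genes of the annotation 17169 nt. Across genes, the Spearman rho of span against peak number was 0.0579 over the 1716 genes with a peak and 0.170 over the 94. Both sets are limited to genes with a minimum number of peaks, so nothing is read from these values. The 5 shortest spans were those of Tubb4b, Klf2 (2593 nt), Rpl14 (3137 nt), Eef1a1 (3272 nt) and Lefty1 (3380 nt). The 5 longest were those of Smyd3, Snd1 (454826 nt), Dst (400775 nt), Macf1 (338170 nt) and Tns3 (233107 nt). A gene of 3860 nt, Fgf4, thus held 11 peaks, while Smyd3, over 100 kb longer than any other member, held 5. Peaks per 10 kb of span ran from 0.0883 in Smyd3 to 28.5 in Fgf4, with a median of 1.45.

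**Figure D1:**
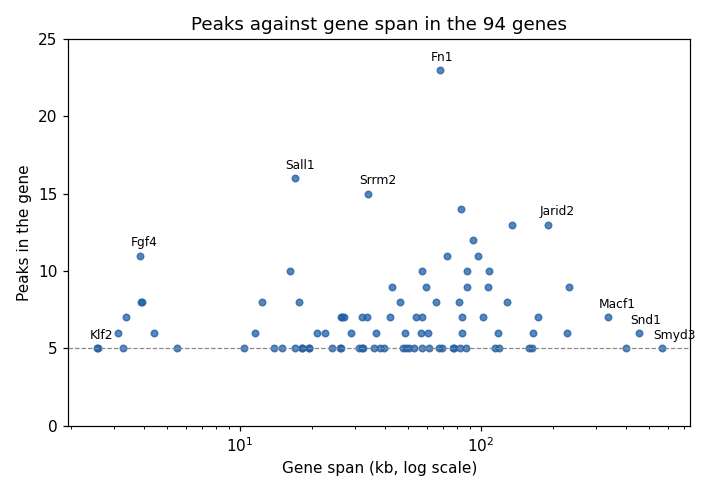
Each point is 1 of the 94 genes, with its span in kb on a log axis and its number of peaks on the other axis; the dashed line marks the minimum of 5. Genes at the minimum occur at both ends of the range, from Tubb4b to Smyd3, and Fn1 stands highest at 23 peaks.

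Along the gene, peaks of the 94 genes leaned to the downstream end, but a smaller share of them lay there than in genes with fewer peaks. The last 10% of the span held 240 of the 664 peaks (36.1%, exact Clopper-Pearson 95% interval 32.5 to 39.9), against 41.5% of all 3070 peaks, 42.8% in genes with 2 to 4 peaks (40.1 to 45.5) and 43.3% in genes with 1 (40.4 to 46.3). A distance of at most 2000 nt to the downstream end was found for 170 member peaks (25.6%, 22.3 to 29.1). The share was 35.9% over all peaks, 37.7% in genes with 2 to 4 peaks (35.1 to 40.4), and 445 of 1113 peaks in genes with 1 (37.1 to 42.9%). The first 20% of the span held 52 member peaks (7.83%, 5.90 to 10.1), close to the 7.49% of all peaks. The median position was 80.1% of the way along the span, with 84.6% in genes with 2 to 4 peaks and 84.0% in genes with 1. Mean positions were closer together, at 71.7%, 73.2% and 72.1% in the same order. Intervals cover counting error only and treat peaks as independent, which peaks of 1 gene are not. The share within 2000 nt depended on the short genes, since without the 10 members whose span was under 10000 nt it was 19.7%. Short spans were not left out of the other classes. A fixed window takes up less of a longer span, and among members this share was 78.8% under 10 kb and 15.3% over 100 kb. Member genes had a median span of 48747.5 nt, against 38047 nt with 2 to 4 peaks and 33390 nt with 1. The difference within 2000 nt was not tested apart from span.

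**Figure D2:**
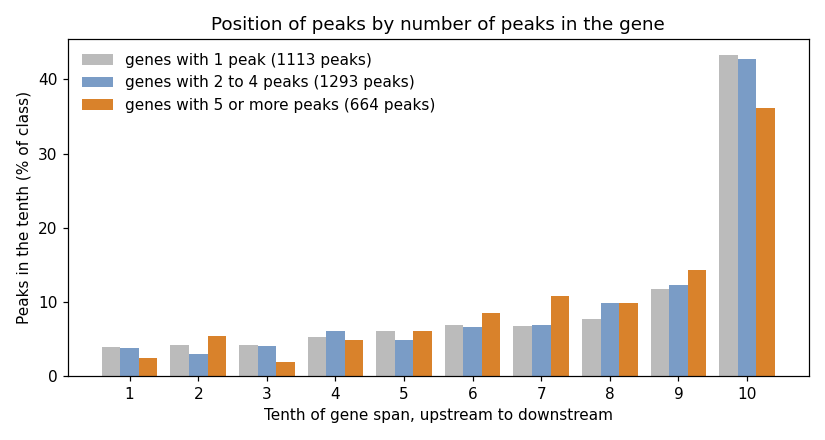
Bars give the share of peaks in each 10% of the gene span, from upstream to downstream, for genes with 1 peak (1113 peaks), 2 to 4 peaks (1293 peaks) and 5 or more (664 peaks). The part at the downstream end holds 36.1% of the peaks in genes with 5 or more and 43.3% in genes with 1, and parts 6 to 9 are taller for genes with 5 or more than for genes with 1.

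The distance from the first to the last peak, called reach here, had a median of 54.2% of the span (quartiles 28.0 and 74.4), or 18453 nt. It covered at least 50% of the span in 50 genes (53.2%), against 23.7% of all 603 genes with at least 2 peaks, and at least 80% in 21 genes. A single outlying peak can set the reach. Of the 50, 44 had a span of at least 10000 nt, and 10 of these 44 had most of their peaks in the last 10%. More peaks widen the reach by construction, so the mean distance between all pairs of peaks of a gene, which does not grow with their number, is the better comparison. Its median was 23.2% of the span (quartiles 12.2 and 30.4) in the 94 genes and 15.0% (2.88 and 31.4) in genes with 2 to 4 peaks, with quartiles that overlap widely. All peaks lay within 5000 nt of the downstream end in 18 genes (19.1%, 11.8 to 28.6), against 37.5% of genes with at least 2 peaks. More peaks make this harder to meet, and so do longer spans. For 10 of those 18 the whole span was under 10000 nt, so that 8 genes with longer spans remained. A further 17 genes (18.1%) had no peak within 5000 nt of the end, against 25.9% of genes with at least 2 peaks, a share that more peaks lower by construction. At least 1 peak lay in the first 20% of the span in 32 genes (34.0%), against 16.6%, and more peaks raise this share by construction. More than 50% of the peaks lay in the last 10% in 30 of the 94 genes, against 31.3% of genes with at least 2 peaks. This measure depends on the number of peaks, since a gene with 2 needs both there, and 305 of the 603 genes hold 2. Nothing is read from the closeness.

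**Figure D3:**
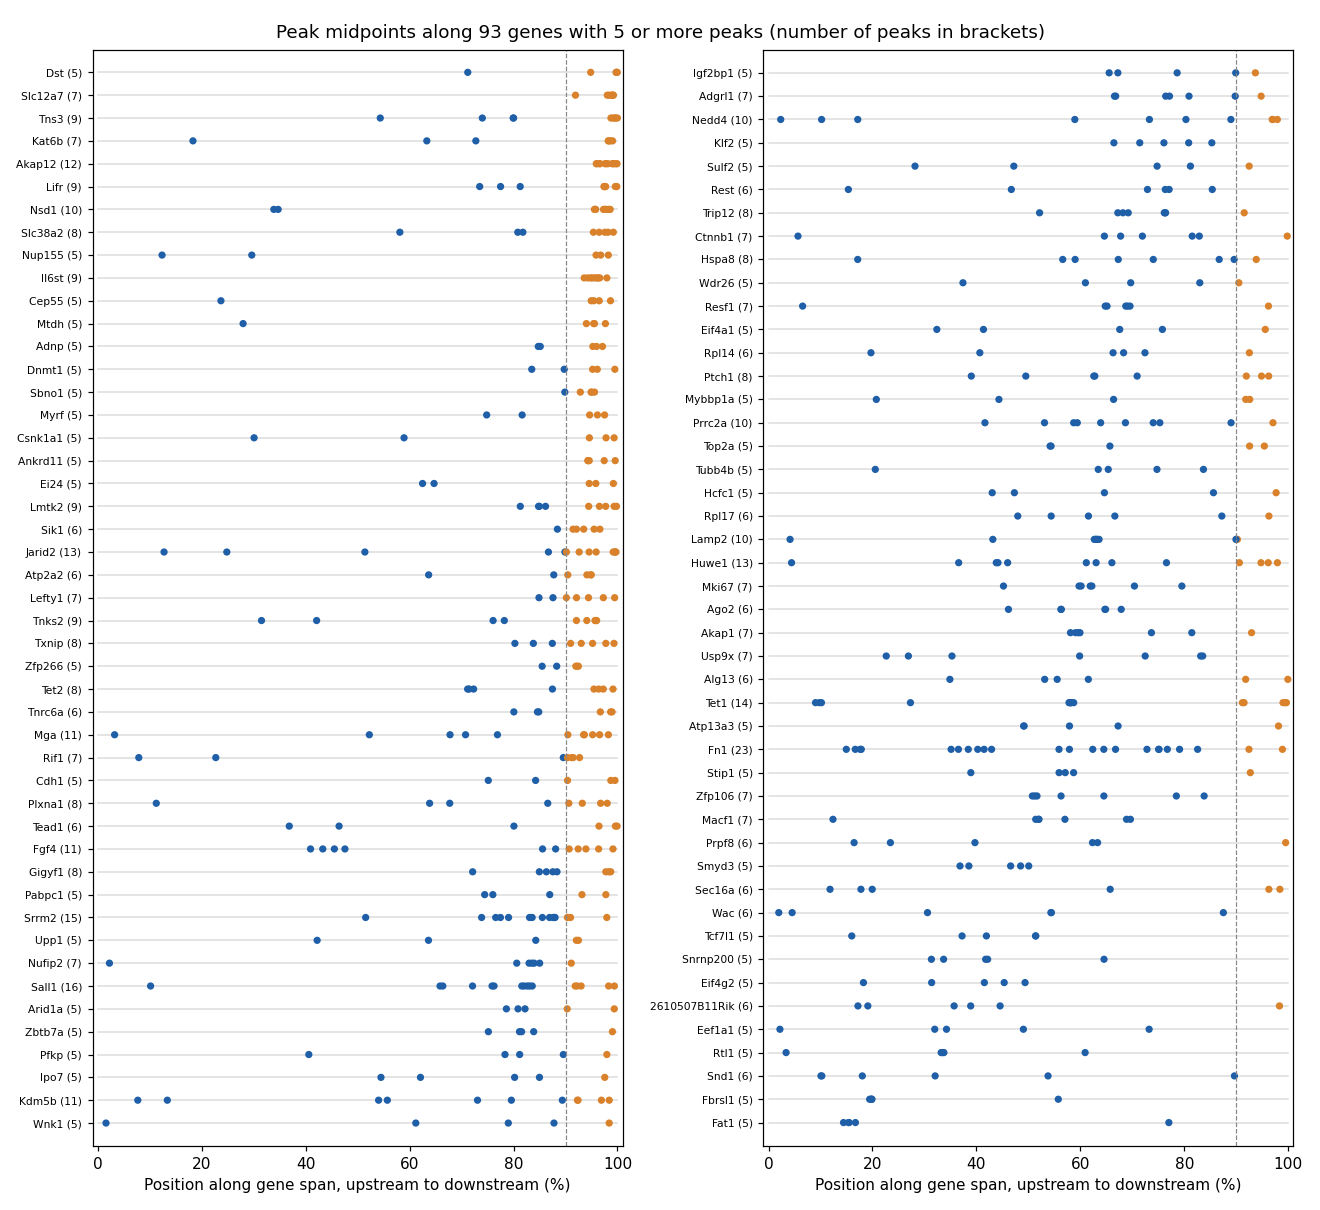
Each row is a gene, 93 of the 94 in all, and each dot a peak midpoint, placed from 0% at the upstream to 100% at the downstream end of the span; orange dots lie past the dashed line at 90%. Rows are ordered by median position, from Dst at 99.7% to Fat1 at 15.5%, and dots gather at the right edge in the upper rows of the left panel.

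In Fn1, Tet1, Huwe1 and Jarid2 the peaks reached over 83.9% to 93.5% of the span, though not evenly. The largest gap was 26911 nt in Tet1 and 67415.5 nt in Jarid2. Fn1 encodes fibronectin, which links cells to the matrix. Its 23 peaks on chr1:71585473-71653280 reached over 83.9% of the span, from 753 to 57664 nt upstream of the downstream end. The median spacing of 1398 nt was 0.495 of the 2825 nt that evenly placed peaks would have, the largest gap was 11720.5 nt, and 2 of the 23 lay in the last 10%. Merging peaks up to 200 nt apart left 21 blocks, so few of them were neighbours. Huwe1, a very large ubiquitin ligase, had 13 peaks over 93.5% of chrX:151800785-151935417, from 2804 to 128676 nt upstream of the end, and stayed at 13 after merging. Jarid2, a partner of Polycomb repressive complex 2, had 13 peaks over 87.0% of chr13:44730774-44921643. Of these, 8 lay in the last 10%, and the other 5 were scattered up to 166554 nt from the end.

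Genes for DNA and histone modification, 8 in number, had 36 of their 73 peaks (49.3%) in the last 10% of the span, against 41.5% of all peaks, a difference that was not tested in a group formed after the genes were seen. Tet1, which oxidises methylated cytosine, had peaks at 5 separate places on chr10:62804570-62887469. Its 14 peaks lay at 288.5 to 827 nt, 7046 to 7313.5 nt, 34224.5 to 34969 nt, 60264.5 nt and 74462 to 75407.5 nt from the end. The middle group held 5 peaks, and the 3 farthest upstream also lay in the span of the long noncoding gene Gm51805. Its relative Tet2 had 8 peaks on chr3:133463677-133545136 with a like break, 4 of them from 704.5 to 3689.5 nt, 1 at 10197.5 nt and 3 from 22550.5 to 23492.5 nt. Kdm5b, a histone demethylase gene, had 11 peaks over 90.7% of its span, with 4 in the last 10%. Nsd1, a histone H3 lysine 36 methyltransferase gene, was split into 8 peaks within 4824 nt of the end and a pair 70880 to 71786.5 nt away, with 66056 nt between them holding none. Kat6b, a histone acetyltransferase gene, had 4 of 7 peaks within 3096 nt of the end and the others at 47230.5, 63577.5 and 141543.5 nt. Dnmt1, which maintains DNA methylation, had 3 of 5 in the last 10%. Smyd3 differed from these, with its 5 peaks 282669.5 to 357537.5 nt from the end, and 2 of them lay within the span of the long noncoding RNA gene Gm31349.

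Among the 11 cofactor genes, 28 of 66 peaks (42.4%) lay in the last 10%, near the 41.5% of all peaks. Mga, a MAX partner that represses germline genes, had 11 peaks over 95.0% of chr2:119872503-119970129, of which 6 lay in the last 10% and 1 stood 94474.5 nt from the end. Rif1, a telomere and replication timing protein, had 5 peaks from 3939 to 5627 nt from the end and a pair at 41709 and 49702 nt. Adnp had its 5 peaks in 2 groups within 3985.5 nt of the end, and all 5 also fell in the span of the long noncoding gene Gm20716. Ankrd11 had its 5 peaks within 9064 nt of the end of a 158964-nt gene, again inside the span of a noncoding gene, Gm39273. Arid1a, a chromatin remodelling subunit, had 5 peaks over 20.8% of its span. Sbno1 kept 5 peaks within 5805.5 nt of its end. Resf1, a retroelement silencing factor, and Mybbp1a reached over 89.7% and 71.9%, and Hcfc1, the gene of host cell factor C1, over 54.6%. Wac, which assists histone H2B ubiquitination, had 6 peaks 7513 to 59018 nt from the end and none in the last 10%. Fbrsl1 held 4 of its 5 peaks in 1 group 69493 to 69877.5 nt from the end, in the upstream part of the gene.

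Signalling genes had 54 of 105 peaks (51.4%) in the last 10% of the span, against 41.5% of all peaks, a difference that was not tested. Both subunits of the receptor for LIF, the cytokine in the medium, were members, and most of their peaks lay near the downstream end. Il6st, which encodes the shared subunit gp130, had all 9 peaks between 873 and 2740.5 nt from the end of chr13:112464070-112506860, over 4.36% of the span. Lifr, the ligand-specific subunit, had 6 of its 9 peaks within 2774.5 nt of the end and the other 3 at 20008.5, 24047 and 28341.5 nt. Fgf4, a growth factor that drives exit from the stem cell state, had 11 peaks on chr7:144861386-144865245 in 2 runs. The first run had 7 peaks from 33.5 to 556.5 nt from the end, the second had 4 from 2024 to 2279.5 nt, and 1467.5 nt between them held none. Lefty1, a Nodal inhibitor, had a single run of 7 peaks within 510.5 nt of the end of chr1:180935022-180938401, each 66 to 96.5 nt from the next. Sik1, a salt-inducible kinase gene, had 6 peaks within 1336.5 nt of its end.

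Of the remaining signalling genes, Ctnnb1, the gene of beta-catenin, had 7 peaks over 94.2% of its span, at 50.5 nt, at 4638.5 to 9590 nt and at 25572 nt from the end. Wnk1 had the widest reach of all 94 genes, 96.8%, with 5 peaks 1835.5 to 112925.5 nt from the end. Ptch1, the Hedgehog receptor, had 8 peaks over 57.2% of the span and Plxna1, a semaphorin receptor, 8 over 86.8%. Tnks2, a tankyrase gene, had 5 of 9 peaks between 2380 and 4687.5 nt from the end. Lmtk2 had 9 peaks over 18.5% and Adgrl1 7 over 28.2%, 4 of them also in the span of the noncoding gene Gm10644. Csnk1a1, the casein kinase of the beta-catenin destruction complex, had 3 of 5 within 2000 nt of the end. Sulf2, a heparan sulfate sulfatase, had 5 peaks over 64.3% of the span.

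The 12 RNA processing and silencing genes together had 15 of 87 peaks (17.2%) in the last 10%, against 41.5% of all peaks, which was also not tested. The share differed within the group, from none in Ago2 to 3 of 6 in Tnrc6a. Srrm2, a spliceosome-associated protein gene, had 15 peaks on chr17:23790527-23824741. Of these, 14 lay between 704.5 and 8945 nt from the end, 8 of them within 5000 nt, and 1 lay at 16582 nt. Prrc2a had 10 peaks from 476.5 to 9480.5 nt. The 6 peaks of Ago2, the gene of the protein that was pulled down, all lay in the middle of its span, 26777 to 44857 nt from the end. Tnrc6a, the GW182 partner that Argonaute uses to silence RNAs, had peaks at 1729, 2168.5 and 5419.5 nt and at 24879.5 to 32745.5 nt. The spliceosome genes Prpf8 and Snrnp200 had 1 of 6 and 0 of 5 peaks within 2000 nt of the end. Snd1 was the sparsest, with 6 peaks 47062 to 408979 nt from its end. Gigyf1 had all 8 peaks within 4925.5 nt of the end, 3 of them in the last 10%. Zfp106 had 7 peaks between 9229.5 and 28085 nt, Nufip2 had 7 peaks over 88.9% of its span, and Igf2bp1 had 5 over 28.1%.

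In the matrix and cytoskeleton group, Akap12, an anchor of protein kinase A, was the opposite of Fn1. Its 12 peaks all lay 83.5 to 3802 nt from the end of chr10:4266329-4359471 and reached over 3.99% of the span, the smallest reach of the 94. Tns3, a focal adhesion protein gene, had 5 of 9 peaks within 2932 nt of the end and the others 46612.5 to 106419 nt away. Dst and Macf1, both genes of giant linkers of actin and microtubules, differed in position. Dst had 3 of 5 peaks within 1073 nt of its end, while the 7 peaks of Macf1 lay 102691 to 296249.5 nt from its end. Fat1, an atypical cadherin gene, had 4 of 5 peaks in the first 20% of the span, and its median position of 15.5% was the lowest of all. Cdh1, the gene of E-cadherin, had 3 of 5 peaks in the last 10%. Akap1 had 7 peaks over 34.8% of its span. Tubb4b had 5 peaks over 63.1% of its span, with 49 nt between the closest, the smallest distance among member peaks.

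The ubiquitin genes, mostly long, had 1 of 43 peaks within 2000 nt of the end, that of Nedd4 at 1831.5 nt. The share was 35.9% over all peaks and 15.3% over member genes with a span over 100 kb. Nedd4, a HECT ligase gene, had 10 peaks over 95.6% of its span. Trip12, another HECT ligase gene, had 8 peaks over 39.4%, none closer to the end than 10912 nt. The deubiquitinase gene Usp9x had 7 peaks 16846 to 79169.5 nt from the end. Wdr26 had 5 peaks over 53.1%. The span median of this group was 102347 nt.

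Among DNA-binding factors, Sall1 and Klf2 were the 2 of the pluripotency list, and both were densely covered. Sall1, a zinc finger factor gene on chr8:89027242-89044162, had 15 peaks within 5778.5 nt of its end and 1 at 15203 nt. Its longest run of neighbours within 200 nt had 5 peaks, and merging at 200 nt left 7 blocks of the 16 peaks. Klf2, a factor of the naive stem cell state, had 5 peaks 381 to 869.5 nt from the end of a 2593-nt gene, each 115.5 to 129 nt from the next, none of them in the last 10%. Rest, the repressor of neuronal genes, had 6 peaks from 3060.5 to 17723 nt, with none within 2000 nt. Tcf7l1, a repressor of WNT targets, had 5 peaks 79029 to 136635 nt from the end. Tead1 had 6 peaks over 63.1% of its span. Zfp266 had its 5 peaks 1981.5 to 3820.5 nt from the end, over 6.98% of the span, and Zbtb7a had all 5 within 4223.5 nt. Myrf had 3 of 5 within 2000 nt.

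**Figure D4:**
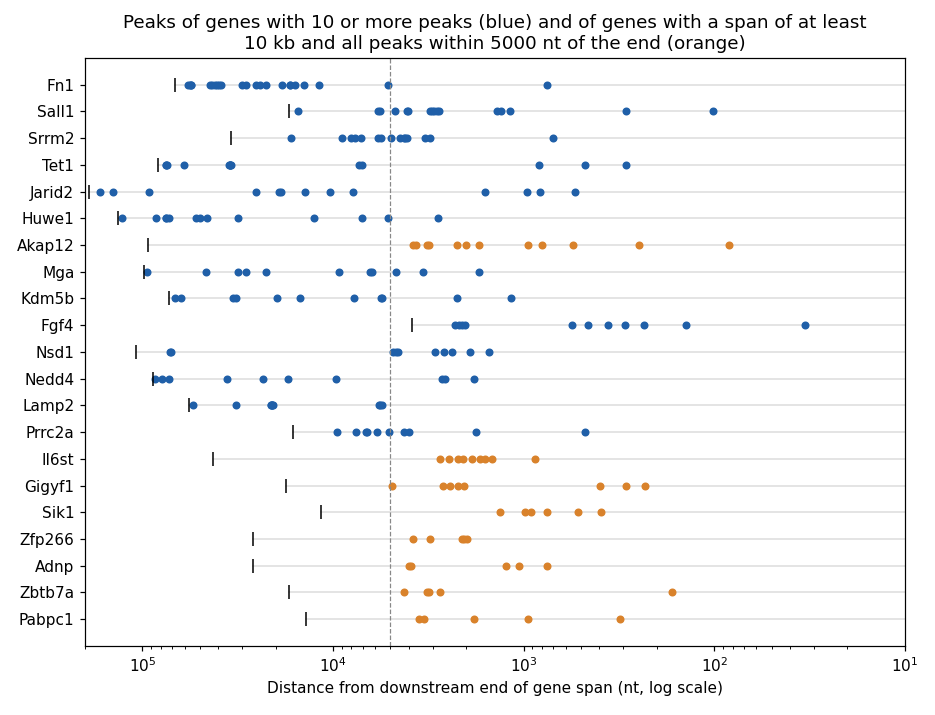
Each row is a gene and each dot a peak, placed by its distance in nt from the downstream end on a log axis that falls to the right; the black tick marks the upstream end of the span and the dashed line 5000 nt. Blue rows are the genes with 10 or more peaks, and orange rows the 8 genes with a span of at least 10 kb and all peaks within 5000 nt of the end, including Akap12, which meets both, with 12 peaks within 3802 nt and Il6st with 9 within 2740.5 nt.

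Metabolism, transport and proteostasis genes contained some of the densest runs. Txnip, which encodes the thioredoxin-interacting protein, had 8 peaks within 770 nt of the end of chr3:96557957-96561857, all within 200 nt of a neighbour and all also within the span of the noncoding gene Gm15441. Slc38a2, an amino acid transporter gene, had 5 of 8 peaks within 2000 nt of the end and a run of 5. Slc12a7 had 6 of 7 within 1642 nt in an 83703-nt gene. Lamp2, a lysosomal membrane protein gene, was unlike these. Of its 10 peaks, 5 formed a run 20681 to 21201.5 nt from the end and 3 another at 5552 to 5711.5 nt. Hspa8, a constitutive chaperone gene, had 8 peaks over 76.7% of a 3927-nt span. The endoplasmic reticulum exit site gene Sec16a had 3 of 6 peaks in the first 20%, and its median width of 151.5 nt was above the 62 nt of all member peaks. Of the others, Atp2a2, a calcium pump gene, had 4 of 6 peaks in the last 10%. Nup155 had 3 of 5, Upp1 2 of 5, Alg13 2 of 6, and Atp13a3, Pfkp, Ipo7 and Stip1 1 of 5 each.

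The translation genes Eef1a1, Eif4a1, Pabpc1, Rpl14, Rpl17 and Eif4g2 had 5 of 32 peaks (15.6%) in the last 10%, in short spans with a median of 4946 nt. The share was 41.5% over all peaks and 28.8% over member genes with a span under 10 kb, which include 4 of these genes. Eef1a1, an elongation factor gene, had peaks from 875.5 to 3199.5 nt from the end of 3272 nt, so that they ran over most of the gene. The ribosomal protein gene Rpl14 had 6 peaks from 234.5 to 2518 nt, and Rpl17 had 6 from 163.5 to 2291.5 nt. Eif4a1, an RNA helicase gene of initiation, had 5 peaks over 63.2% of its span. Pabpc1, whose protein binds poly(A) tails, had all 5 between 312 and 3558.5 nt from the end. Eif4g2 was the only gene of the group with no peak within 5000 nt, its 5 peaks lying 7619 to 12298 nt from the end. Rpl14, Rpl17, Eef1a1, Eif4a1, Hspa8 and Tubb4b have close copies or pseudogenes elsewhere, and Lefty1 resembles Lefty2. No source used here says how reads with several matches were handled, so the peak counts of these genes are uncertain. The cell cycle and apoptosis genes were Mki67 with 7 peaks from 5457.5 to 14610.5 nt, Top2a with 5 peaks over 41.2% of its span, and Cep55 and Ei24, with 4 of 5 and 3 of 5 peaks within 2000 nt of the end. Those 3 of Ei24 also lay in the span of the noncoding gene Gm26787. Outside the groups, Mtdh had 4 of 5 peaks within 3658 nt of its end and 1 at 44017.5 nt, and 2610507B11Rik had 6 peaks over 81.1% of its span.

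Across 570 pairs of neighbouring member peaks, the median distance between midpoints was 1090 nt, with quartiles of 227.125 and 5569.25 nt and a range of 49 to 163154 nt. At most 200 nt separated 132 pairs (23.2%, 19.8 to 26.8), against 20.6% of the pairs in all genes with at least 2 peaks and 18.8% (16.1 to 21.7) in genes with 2 to 4. More peaks in a span shorten the spacing by construction. A distance over 10000 nt separated 89 pairs (15.6%). In 89 of the 94 genes the median spacing was below the even spacing, the span divided by the number of peaks plus 1. The same held for 80.8% of all 603 genes with at least 2 peaks and 78.2% of genes with 2 to 4. A median of gaps is set here against a mean-type spacing, so most genes fall below it even with randomly placed peaks. More peaks make this more frequent by construction, so nothing is read from the count. The median ratio was 0.349 (quartiles 0.131 and 0.578) in the 94 genes and 0.410 (0.0785 and 0.909) in genes with 2 to 4. At least 1 pair within 200 nt was found in 57 member genes (60.6%), against 30.5% of all genes with at least 2 peaks, a count that more peaks raise by construction. Of the 57, 24 had a run of 3 or more such peaks and 7 a run of 5 or more. Those 7 were Txnip with 8, Fgf4 and Lefty1 with 7 each, and Sall1, Lamp2, Slc38a2 and Klf2 with 5 each. The shortest median spacings were in Lefty1 (82.5 nt), Fgf4 (92.75 nt), Txnip (99.5 nt), Klf2 (122 nt) and Lamp2 (126 nt). The longest was in Snd1, 63752 nt. The 5 genes at or above even spacing were Wac with a ratio of 1.66, Rpl14 with 1.41, Mybbp1a with 1.37, Eef1a1 with 1.17 and Prpf8 with 1.14. A single gap took more than 50% of the span in 13 genes (13.8%), against 13.3% of all genes with at least 2 peaks and 13.2% of genes with 2 to 4. With randomly placed peaks this share falls as their number grows, so nothing is read from the closeness. The largest such gap was 78.4% in Nufip2.

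**Figure D5:**
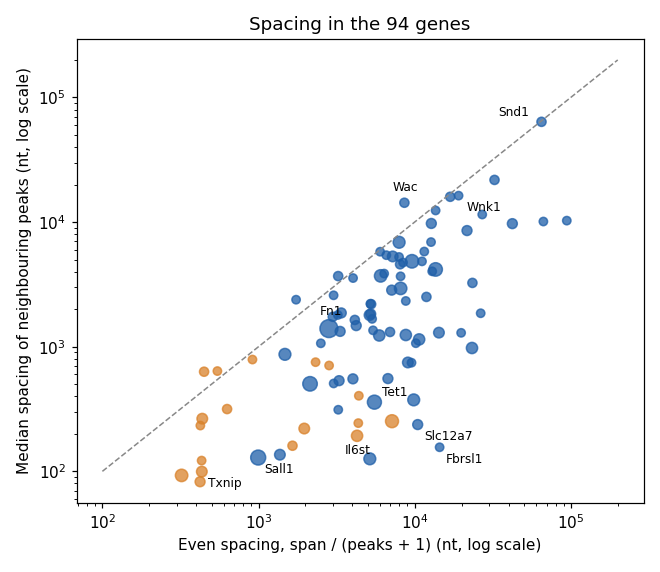
Each point is 1 of the 94 genes, with the spacing its peaks would have if spread evenly on one log axis and the measured median spacing of neighbours on the other, both in nt; point size grows with the number of peaks, orange marks genes with all peaks within 5000 nt of the end and the dashed line marks equality. Of the 94 points, 89 lie below the line, with Fbrsl1 lowest at a ratio of 0.0108 and Snd1 near the line at 0.981. Most points would lie below it for randomly placed peaks too.

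The count of peaks per gene was compared with a count of blocks, in which peaks of a gene whose edges were at most 200 nt apart were merged. The 664 peaks then formed 499 blocks, 59 of the 94 genes kept 5 or more and 35 did not. Txnip, Lefty1 and Klf2 became 1 block each, Fgf4, Il6st and Sik1 became 2, and 27 genes were unchanged. Huwe1 kept its 13, Sall1 went from 16 to 7, Akap12 from 12 to 6 and Lamp2 from 10 to 4.

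The numbers in the peak names differed between genes in how many were absent. They rise along each chromosome and strand up to 30438, so that 10.8% of the numbers appear in the list. No source used here says what the absent numbers stood for. Between the first and last peak of each member gene, the names spanned 2546 numbers in all, of which 664 (26.1%) were listed. These ranges begin and end at a listed peak, which raises the share. Txnip (8 of 8), Lefty1 (7 of 7) and Klf2 (5 of 5) skipped none. Dst was lowest with 5 of 54 (9.26%), and Huwe1 had 13 of 111 and Fn1 23 of 80. Neighbours at most 200 nt apart had consecutive numbers in 122 of 132 pairs, and neighbours more than 2000 nt apart in 26 of 222.

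Member peaks had a median width of 62 nt (quartiles 47 and 94), against 59 nt (45 and 84) in genes with 2 to 4 peaks and 57 nt (45 and 81) in genes with 1. Widths of 100 nt or more were found in 149 of 664 (22.4%, 19.3 to 25.8), against 17.4% of all peaks, 17.4% (15.4 to 19.6) in genes with 2 to 4 and 14.4% (12.4 to 16.6) in genes with 1. All peaks of a gene lay on 1 strand in each of the 94 genes. The RefSeq promoter table gave the strand of 68 of these genes, and all 484 of their peaks matched it. So did 1042 of 1043 peaks (99.9%) in genes with 2 to 4, 914 of 937 (97.5%) in genes with 1, and 99.0% of all peaks with a known gene strand. Rtl1 was among the member genes without a strand there. As background, its 5 peaks lie on the strand opposite to its own transcription. Noncoding genes overlapped 39 member peaks by midpoint in 14 genes (5.87%, 4.21 to 7.94), against 3.81% of all peaks and 2.94% (2.09 to 4.01) in genes with 2 to 4. These overlaps, here and above, ignore the strand of the noncoding gene, so they do not say which RNA a peak came from. Of the 39, 33 lay in the spans of long noncoding RNA genes, and 18 of the 39 were those of Txnip, Adnp and Ankrd11. The other 6 comprised 5 in small nucleolar RNA genes, which guide the modification of other RNAs and are processed from introns, and 1 in a pseudogene within Macf1. The 5 were a pair in Hspa8 (Snord14c and Snord14e), a pair in Rpl17 (Snord58b and Gm26202) and 1 in Eif4g2 (LOC115486847). This share, 0.753% (0.245 to 1.75), was close to the 0.717% of all peaks. The peak in Snord14c, chr9:40803584-40803600, was 17 nt wide. Without these 5 peaks, Rpl17 and Eif4g2 would hold 4 each and fall below the minimum, leaving 92 genes.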

How the data were processed

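Peak positions, strands and names came from the 1 list the authors deposited for the series, on the mm10 build per the submitters' processing notes. Its deposited score was 0 for every peak, so no peak could be ranked. Without giving their roles, those notes also list STAR 2.5.2a, cutadapt 2.10, Bowtie2 2.4.2, UMI-tools, deepTools 3.1.3 and DESeq2 1.36.0. No source used here states how peaks were called, at which threshold, or whether the input entered. A stricter or looser list would change every count of peaks per gene.

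Midpoints were assigned to the spans of 21900 protein-coding genes (RefSeq, GRCm38.p6), mitochondrial genes left out of the members, irrespective of gene strand, and coordinates count from 1. Position was measured in the direction of the peak strand. Gene strand came from the RefSeq promoter table. Shares have exact Clopper-Pearson 95% intervals. No test between classes was made. The members, lists and classes were chosen with earlier results of these data known. All member genes but 1, which is counted throughout but not reported by name here, are named, and the genes with 10 or more peaks, the extremes of span, reach and spacing, and listed genes are described with values. Functions were assigned after the genes were seen, from general knowledge. The assignment and position steps were tested on simulated data. Python 3.11.15, numpy 2.4.6, pandas 2.3.3, scipy 1.17.1 and matplotlib 3.10.9 were used.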

Additional observations from a re-analysis of the deposited data

How the results depend on the processing

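No paired analysis was possible because the target and input libraries have no values of their own here and the result is 1 list. Leaving out a replicate was not possible for the same reason. The 94 genes numbered 94 with any overlap of 1 nt, 70 with peaks at most 50 nt apart merged and 59 with those at most 200 nt apart merged. They numbered 165 with a minimum of 4 peaks and 55 with a minimum of 6. Leaving out peaks against a known gene strand also gave 94. That setting could remove no member peak, since all 484 with a known gene strand matched it. The share in the last 10% of the span moved from 36.1% to 32.2% after merging at 200 nt and stayed within its interval under the 5 other alternatives. The 32.2% covers only the blocks of the 59 genes that kept 5 or more. It therefore mixes merging with the loss of the other 35 genes. The share within 2000 nt of the end fell to 19.7% without spans under 10000 nt, an alternative chosen after seeing the data, as was leaving out peaks in small nucleolar RNA genes (92 genes). The 18 genes with all peaks within 5000 nt of the end became 4 with a window of 2000 nt, 27 with 10000 nt, and 8 without short spans. The 50 genes with a reach of at least 50% became 57 at 40% and 40 at 60%. Measured edge to edge, 28.9% of neighbours were at most 200 nt apart. The median span was 47948 nt with a minimum of 4 and 56814 nt with 6. The list has no depth, so none of these values has a counting error per peak.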
